A study of Mus musculus with 18 samples.

Results

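The onset of lymphocyte infiltration in the lacrimal gland (LG) of NOD.H-2b males was followed by comparing 3 mice at 4 months of age (4M) with 3 mice at 2 months (2M). These are 6 of the 18 mice in the series, and they were chosen by strain and age alone, over every gene with enough counts to be tested. NOD.H-2b, the strain NOD.B10Sn-H2b/J, is a mouse in which the diabetes-linked MHC region of NOD was replaced by the H2b haplotype. It does not become diabetic and serves as a model of primary Sjögren's syndrome. All 6 mice carried this haplotype, were male and untreated, and gave whole LG tissue, so each sample mixes secretory epithelium, vessels, stroma and infiltrating cells. BALB/c males of 2M and 4M, 3 in each group, served as controls for what 2 further months of age bring. The remaining 6 mice, of 6M, entered only 1 alternative fit. RNA of each gland was depleted of ribosomal RNA before sequencing, and reads were counted per gene.

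The LG makes the watery part of tears. In Sjögren's syndrome B and T lymphocytes gather in foci around its ducts and vessels, where they can be arranged like a small lymph node, with chemokine-producing stroma and the specialised vessels through which lymphocytes leave the blood. A healthy LG already holds plasma cells that make immunoglobulin A (IgA), which the epithelium carries into tears with the polymeric immunoglobulin receptor.

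Library totals were 56840654 to 62057758 counts at 2M and 49480781 to 62623939 at 4M. The 10 salivary gland marker genes summed to 1.03 to 1.47 CPM, counts scaled to a common library size, and the 10 skeletal muscle genes to 0.471 to 1.07 CPM, beside 268500 to 306500 CPM for the 24 lacrimal secretory genes, so the tissue label held in each mouse. Nothing in the labels names litters or cages, and each p-value measures only the spread among these 6 mice. Values of single mice are given below in the order replicate 1, 2 and 3, in CPM scaled by TMM.

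Of 17763 genes tested, 1061 (5.97%) rose at least 2-fold from 2M to 4M and 111 (0.625%) fell at least 2-fold at an adjusted p under 0.05 in edgeR's quasi-likelihood test. These are called DEGs here. Without the fold threshold 1826 genes rose (10.3%) and 973 fell (5.48%), and "rose" and "fell" are used of single genes in that sense. The median log2 fold change of all genes tested was 0.015. Gene segments of lymphocyte receptors were called most often: 98 of 201 immunoglobulin segments (48.8%) and 25 of 47 T cell receptor segments (53.2%) rose at least 2-fold, against 716 of 13855 protein-coding genes (5.17%). Among the 111 genes that fell, 81 were protein coding and 1 was an immunoglobulin segment.

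The 2M mice did not stand at the same point. Over the 1061 genes that rose, replicate 1 lay a median 3.72-fold below the 4M mean, replicate 3 lay 3.02-fold below it and replicate 2 lay 2.44-fold below it. Replicate 1 was the lowest of the 3 in 71.9% of these genes, and replicate 2 the highest in 71.3%. At 4M, replicate 1 was the highest of its group in 79.7% of the genes, and replicate 3 the lowest in 58.1%. Because the genes were chosen by this comparison, these positions describe the mice and test nothing. Over all 17763 genes the medians of the 6 mice lay within -0.03 and 0.01 of the 4M mean on the log2 scale.

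**Figure D1:**
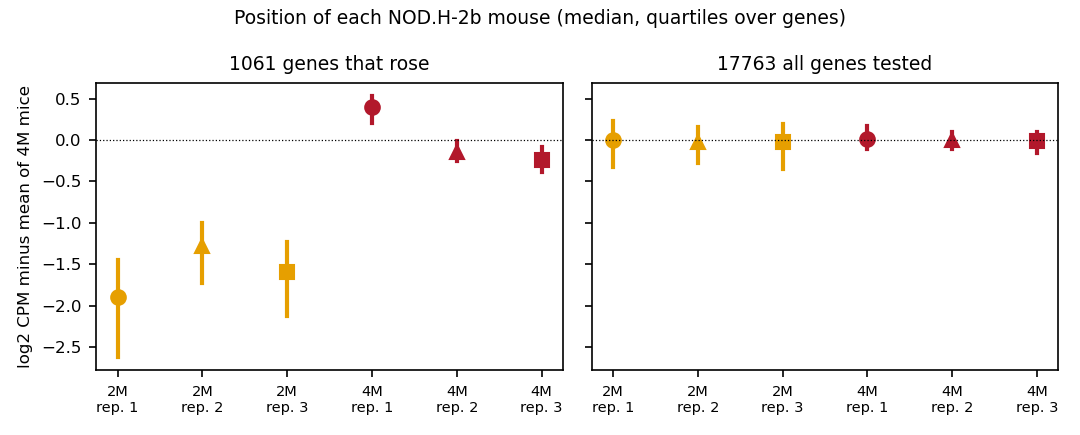
Position of each NOD.H-2b mouse. The y axis is log2 CPM minus the mean of the 4M mice, points are medians over genes and bars run between the quartiles, with the 1061 genes that rose on the left and all 17763 genes tested on the right. On the left the 2M mice sit at -1.90, -1.29 and -1.60 and 4M replicate 1 at 0.40, while on the right all mice sit near 0.

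The counts of DEGs moved with single mice. When 2M replicate 3 was left out, and the 2M mice that lie farthest apart stood alone for that age, 229 genes rose at least 2-fold. The count was 545 without 4M replicate 1, 660 without 2M replicate 1, 682 without 4M replicate 2, 946 without 4M replicate 3 and 1149 without 2M replicate 2. For genes that fell, it was 61 without 2M replicate 3, 67 without 2M replicate 1 and 95 to 116 without any other mouse.

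Of the immune lists, the B cell list had the largest median log2 fold change. The 20 genes of the B cell list, all of which passed the filter on low counts, summed to 23.1, 87.0 and 49.5 CPM at 2M and to 666, 362 and 313 CPM at 4M, an 8.40-fold higher mean. All 4M sums lay above all 2M sums, and the 2M mice themselves differed 3.78-fold between replicates 1 and 2. Every 4M mouse was above every 2M mouse for 20 of 20 genes, against 22.1% of all genes tested. The median log2 fold change of the list was 3.71, and 12 of 20 genes rose at least 2-fold in the test. In these whole glands, more B cells and more RNA per B cell cannot be told apart.

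Promoters are shown for 3 of the B cell DEGs and for Irf1, an interferon gamma target that also rose and is described further on. They were picked after the values were seen, because each held a match to 1 of 3 motifs of lymphocyte or interferon gamma regulated genes. The sequences are RefSeq, build GRCm38.p6, 250 bases before to 50 bases after the gene's start, 5′ to 3′ on the gene's strand, and capitals mark the match. Cd72 and Cd37 hold ACTTCCTC, the reverse complement of GAGGAAGT, a form of the site of the myeloid and B cell factor PU.1, with the first base at -49 and -25 from the start. Blnk holds ATTTGCAT, the reverse complement of the octamer ATGCAAAT read by Oct factors, at -130. Irf1 holds the letters TTCNNNGAA, found in promoters of interferon gamma regulated genes, at -90.
Cd72, chr4:43454577-43454876, minus strand: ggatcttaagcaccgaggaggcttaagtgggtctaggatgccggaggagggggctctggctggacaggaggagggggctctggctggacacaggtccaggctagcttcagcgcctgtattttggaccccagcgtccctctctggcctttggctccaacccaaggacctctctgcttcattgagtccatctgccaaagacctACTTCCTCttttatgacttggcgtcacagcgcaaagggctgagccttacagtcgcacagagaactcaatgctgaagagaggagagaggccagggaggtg
Cd37, chr7:45238790-45239089, minus strand: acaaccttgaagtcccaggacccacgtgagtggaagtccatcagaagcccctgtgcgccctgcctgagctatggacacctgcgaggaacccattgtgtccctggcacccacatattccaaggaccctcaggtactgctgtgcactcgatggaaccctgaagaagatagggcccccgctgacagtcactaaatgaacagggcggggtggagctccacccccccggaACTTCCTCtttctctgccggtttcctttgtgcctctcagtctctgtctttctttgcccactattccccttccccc
Blnk, chr19:40994172-40994471, minus strand: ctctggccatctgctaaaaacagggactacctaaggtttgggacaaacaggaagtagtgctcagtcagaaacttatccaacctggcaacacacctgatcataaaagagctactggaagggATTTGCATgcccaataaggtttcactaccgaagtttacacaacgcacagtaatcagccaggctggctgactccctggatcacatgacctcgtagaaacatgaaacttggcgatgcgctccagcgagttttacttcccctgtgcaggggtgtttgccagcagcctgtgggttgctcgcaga
Irf1, chr11:53769764-53770063, plus strand: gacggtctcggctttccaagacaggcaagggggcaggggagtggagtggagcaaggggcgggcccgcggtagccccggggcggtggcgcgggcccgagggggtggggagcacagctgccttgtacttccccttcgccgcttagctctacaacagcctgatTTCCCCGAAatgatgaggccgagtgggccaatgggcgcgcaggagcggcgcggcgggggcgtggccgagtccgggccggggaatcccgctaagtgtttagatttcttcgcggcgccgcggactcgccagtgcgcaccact
On both strands, GAGGAAGT was found in 3.21% of the promoters of 11529 genes tested and in 53 of the 588 promoters at hand for genes that rose at least 2-fold (9.01%). The octamer was in 1.37% and 2.21%, and TTCNNNGAA in 7.02% and 8.5%. A match says only that the letters occur there. No binding was measured.

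Cd79a, the signalling chain of the B cell receptor (chr7:24897381-24902197, GRCm38), had 0.39, 3.13 and 1.65 CPM at 2M and 38.1, 19.8 and 18.5 CPM at 4M. The groups did not overlap, and the gene rose by 3.87 on the log2 scale (SE 0.76, adjusted p = 0.0335). Blk, a Src family kinase of the same receptor, showed the largest fold change of the list that passed the test. It had 0.146, 0.949 and 0.28 CPM at 2M and 13.6, 9.39 and 7.86 CPM at 4M, with a log2 fold change of 4.46 (SE 0.66, adjusted p = 0.0172). The adaptor Blnk (log2 fold change 1.83, adjusted p = 0.0297), the tetraspanin Cd37 (2.72, adjusted p = 0.0335) and the inhibitory receptor Cd72 (1.60, adjusted p = 0.0216) rose from levels that were already above 2 CPM in each 2M mouse.

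Several well-known B cell markers missed the threshold and were among the genes most spread out at 2M. Ms4a1, which encodes CD20, had 0.065, 4.79 and 1.66 CPM at 2M and 43.1, 22.2 and 19.1 CPM at 4M (adjusted p = 0.0873). All 4M mice were far above the 2M mice, and replicate 1 of 2M was close to 0. Pax5, the transcription factor that fixes B cell identity, ran from 0.0163 to 4.37 CPM within 2M and from 25.1 to 56.7 CPM within 4M (adjusted p = 0.0672). Cr2, the complement receptor of mature and follicular B cells, ran from 0.0325 to 3.66 CPM and from 15.3 to 33.5 CPM (adjusted p = 0.0856). Ms4a1, Pax5, Cr2 and the segment Ighv14-3 were among the 5 genes with the widest log2 range within 2M, out of all moderately expressed genes, meaning those whose log2 CPM averaged 3 or more.

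**Figure D2:**
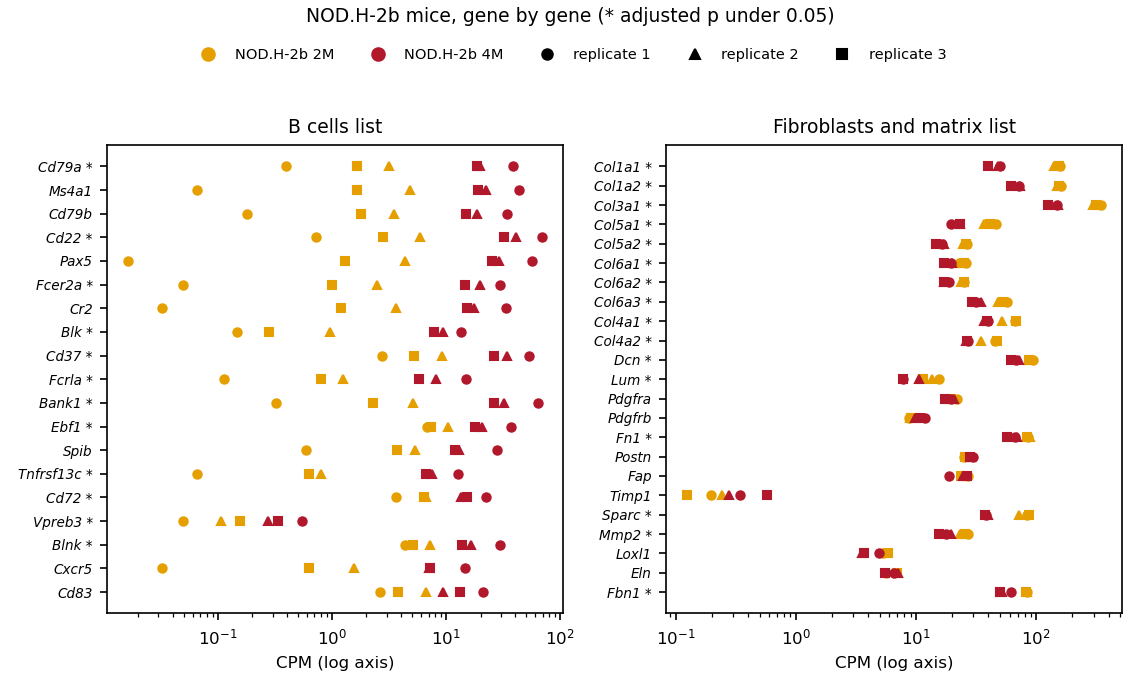
CPM of each NOD.H-2b mouse on a log axis for 19 of the 20 genes of the B cell list (left) and the 23 genes of the fibroblast and matrix list (right), with colour for age, marker shape for replicate and an asterisk for an adjusted p under 0.05. In the B cell list the 3 markers of 2M are spread out, with replicate 1 lowest in 19 genes and replicate 2 highest in 18, and in the matrix list the markers of each age lie close together.

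The number of B cell genes passing the test depended on which mice were used. It was 0 of 20 without 2M replicate 3, 10 without 2M replicate 1, 9 without 2M replicate 2, and 4, 2 and 5 without 4M replicate 1, 2 and 3. With all 6 mice, 20 of 20 had an unadjusted p under 0.05. DESeq2's Wald test called 20 of 20, and so did edgeR when all 18 mice shared the estimate of the spread. None of the 20 log2 fold changes was negative.

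The T cell list had a higher sum at 4M too, and its 2M sums stood in the same order as those of the B cell list. The 26 genes summed to 23.6, 79.5 and 49.2 CPM at 2M and 315, 179 and 166 CPM at 4M, a 4.33-fold higher mean without overlap. The median log2 fold change was 2.12, and 13 of 26 rose at least 2-fold. Cd247, the zeta chain of the T cell receptor complex, had 0.39, 1.01 and 0.886 CPM at 2M and 6.29, 4.12 and 3.39 CPM at 4M (log2 fold change 2.58, SE 0.38, adjusted p = 0.00943). Cd3e, another chain of that complex, had 1.35, 5.08 and 3.42 CPM at 2M and 21.5, 12.1 and 12.2 CPM at 4M, and its adjusted p was 0.0559. Cd40lg, the ligand by which T helper cells activate B cells, had the largest fold change of the list that passed (3.02, adjusted p = 0.00965). It stayed under 1 CPM in each mouse, with 0.0452 to 0.0975 CPM at 2M and 0.429 to 0.978 CPM at 4M.

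Among other T cell genes, Cd8b1, a chain of the cytotoxic coreceptor, rose by 2.63 (adjusted p = 0.00941). Ccr7, a homing receptor of naive lymphocytes, rose by 1.84 (adjusted p = 0.0373). The checkpoint receptor Ctla4 rose by 2.37 (adjusted p = 0.0273), from 0.0163 to 0.187 CPM at 2M to 0.496 to 0.677 CPM at 4M. Leaving out 2M replicate 3 left 2 of 26 T cell genes past the threshold. The number was 16 without 2M replicate 1, 17 without 2M replicate 2, 5 without 4M replicate 1, 5 without 4M replicate 2 and 7 without 4M replicate 3. DESeq2 called 23 of 26.

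Of 16 killer cell genes of the cytotoxic list tested (Ifng was below the filter), 2 rose, Cst7 and Nkg7, a share near the 10.3% of all genes. The count was 7 without 2M replicate 2, 1 without any other mouse and 5 in DESeq2. Cst7, the protease inhibitor cystatin F, went from 0.0813, 0.151 and 0.14 CPM to 2.27, 1.23 and 1.43 CPM (log2 fold change 3.70, SE 0.38, adjusted p = 0.00252) and was past the threshold in each alternative fit that tested it. Ccl5, a chemokine of T and killer cells, had 3.20, 7.19 and 4.35 CPM at 2M and 10.8, 6.42 and 8.42 CPM at 4M. Its groups overlapped (adjusted p = 0.169). The list's median log2 fold change was 0.80.

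The leukocyte list, with genes that all white blood cells share, summed to 372, 553 and 451 CPM at 2M and 1250, 853 and 844 CPM at 4M, and 8 of 15 rose at least 2-fold. Cd52, a surface glycoprotein of lymphocytes, had the largest fold change of these (1.90, adjusted p = 0.044). Ptprc, which encodes CD45, had 36.0, 95.8 and 66.1 CPM at 2M and 301, 178 and 168 CPM at 4M, without overlap and with an adjusted p of 0.0644. The number past the threshold was 10, 13 and 0 without 2M replicate 1, 2 and 3 and 3, 4 and 3 without 4M replicate 1, 2 and 3.

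At 4M the immunoglobulin constant genes had the highest sum of the immune lists. The 13 constant region genes summed to 439, 1141 and 988 CPM at 2M and to 5393, 5471 and 4486 CPM at 4M, which is 5.98-fold higher, and 6 of the 11 tested rose at least 2-fold. Jchain, which joins IgA and IgM into polymers (chr5:88519809-88527891), had 57.5, 154.5 and 115 CPM at 2M and 464.5, 681 and 480.5 CPM at 4M (log2 fold change 2.31, SE 0.42, adjusted p = 0.0278). Igha, the constant region of IgA, rose by 2.24 (adjusted p = 0.0403), from 661 CPM or less in each 2M mouse to at least 1385 CPM in each 4M mouse. Ighd, the constant region of IgD on naive B cells, rose more, by 4.18 (adjusted p = 0.0408). It had 0.39, 5.74 and 3.11 CPM at 2M and 85.9, 48.7 and 34.8 CPM at 4M, so the order of the mice was that of the B cell list. With 2M replicate 3 or 4M replicate 1 left out, 0 of the 11 passed, against 9 at an unadjusted p under 0.05 with all mice and 9 by DESeq2. Without the other mice 1 to 6 of them passed.

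Of the 14 plasma cell genes, 7 rose and 1 fell, with a median log2 fold change of 1.26. Tnfrsf17, the receptor BCMA that keeps plasma cells alive, had the largest fold change of those that rose (2.53, adjusted p = 0.0151), at 0.124 to 0.316 CPM in 2M and 0.662 to 1.95 CPM in 4M. Irf4, a transcription factor of plasma cells and activated lymphocytes, rose by 2.18 (adjusted p = 0.0216), and Prdm1, its partner in plasma cell formation, by 0.96 (adjusted p = 0.0106). Derl3, an endoplasmic reticulum protein that secretory acini also express, fell by 0.30 (adjusted p = 0.0233), from 132 to 148 CPM to 110 to 120 CPM. A single plasma cell gene passed as higher when 2M replicate 3 was left out, and 4 to 8 did without any other mouse.

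IgA made up most heavy chain transcripts in every mouse but 1. Its share of heavy chain constant region counts was 88.6%, 85.1% and 82.3% at 2M and 38.0%, 87.0% and 84.8% at 4M. In 4M replicate 1 the place of IgA was taken by Ighg1, with 44.4% of the counts (95% Wilson interval 44.2% to 44.6%). Ighg1 took 0.576% to 1.74% at 2M and 0.239% and 0.792% in the other two 4M mice, so its level of 1620 CPM belonged to a single gland. Its other values were 1.71, 7.05 and 11.6 CPM at 2M and 8.55 and 23.2 CPM at 4M, and its log2 fold change of 6.34 had an adjusted p of 0.203. The IgD share grew from 0.132% (0.0885% to 0.196%), 0.739% (0.669% to 0.817%) and 0.466% (0.406% to 0.535%) at 2M to 2.36% (2.30% to 2.42%), 1.36% (1.31% to 1.41%) and 1.19% (1.14% to 1.25%) at 4M. These intervals are 95% Wilson intervals that cover counting error alone, and the 4M shares lay above the 2M shares in each mouse.

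**Figure D3:**
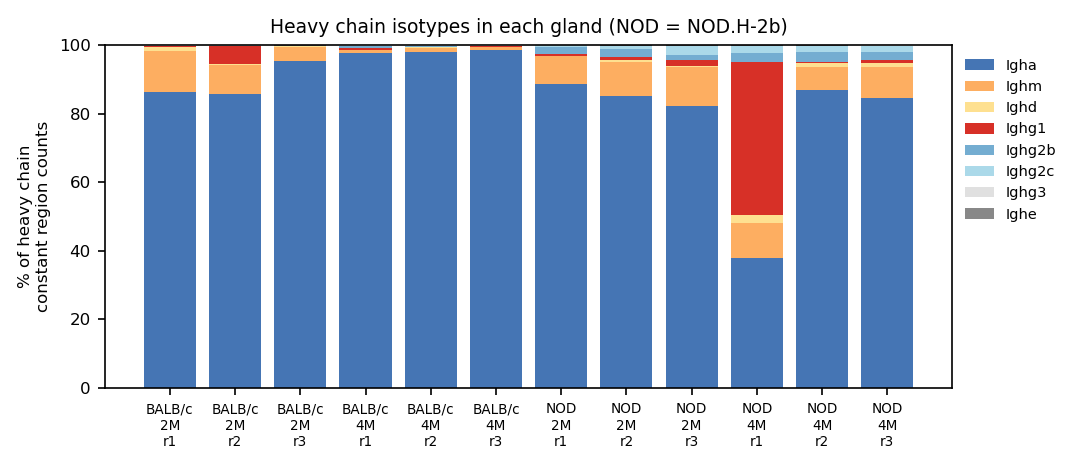
Share of heavy chain constant region counts per isotype (y axis, percent, stacked to 100) in each of the 12 mice of 2M and 4M, with NOD standing for NOD.H-2b. Igha fills 82.3% to 88.6% of the bar in each NOD.H-2b mouse except 4M replicate 1, where Ighg1 holds 44.4%.

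Variable segments, the parts of antibody genes that differ from clone to clone, were counted in wider variety at 4M. Segments of the Ighv family with at least 10 counts numbered 62, 77 and 79 at 2M and 93, 93 and 89 at 4M, and those of Igkv numbered 51, 68 and 65 and then 82, 81 and 75. The Ighv counts of a mouse totalled 4969 to 14281 at 2M and 33946 to 57661 at 4M, and their part in these numbers was not tested. Of the segments tested, 27 of 90 Ighv rose at least 2-fold, and 44 of 76 Igkv did while 1 fell. Ighv4-1 led the Ighv counts in all 3 mice of 2M, with 9.42% (8.64% to 10.3%), 7.92% (7.49% to 8.37%) and 13.8% (13.1% to 14.4%) of them. At 4M each mouse had its own leader, Ighv1-81 with 9.09% (8.84% to 9.33%), Ighv1-9 with 7.95% (7.73% to 8.18%) and Ighv3-6 with 8.28% (7.99% to 8.58%). Since segments of a family are close to identical in sequence, reads can be split among them, and values of single segments are uncertain to that extent.

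Segments stood at both ends of the list of moderately expressed DEGs. Igkv6-15 had 0.796, 0.723 and 1.10 CPM at 2M and 20.4, 27.3 and 15.1 CPM at 4M (log2 fold change 4.57, SE 0.28, adjusted p = 0.000987), and Igkv6-23 rose by 4.56 (SE 0.25, adjusted p = 0.000366). These 2 segments were past the threshold in each alternative fit. Igkv8-19 rose by 4.69 (adjusted p = 0.0238). Igkv4-86 went the other way, from 7.49, 15.2 and 24.6 CPM at 2M to 3.96, 2.82 and 3.33 CPM at 4M (log2 fold change -2.23, SE 0.47, adjusted p = 0.0371), and in 2M replicate 3 it led the Igkv counts with 14.9% (14.2% to 15.5%). Ighv14-3 differed most among the 2M mice, with 0.114, 12.0 and 1.40 CPM, and did not separate the ages (adjusted p = 0.401).

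Of the 14 genes of organised lymphoid foci tested 7 rose, some of them from near 0. Glycam1, a mucin-like protein of high endothelial venules (chr15:103562759-103565081), had 0, 0 and 9 counts at 2M and 438, 322 and 252 counts at 4M, or at most 0.14 CPM and then 6.59, 4.93 and 5.00 CPM. The groups did not overlap, and the adjusted p was 0.00731. Chst4, a sulfotransferase of the same vessels, was at 0, 0 and 0.0155 CPM at 2M and 0.496, 0.276 and 0.516 CPM at 4M (adjusted p = 0.00618). Cxcl13, the chemokine that draws B cells into follicles, was present at 2M already, with 2.34, 5.03 and 2.35 CPM, and had 15.8, 11.7 and 11.6 CPM at 4M (log2 fold change 2.00, SE 0.35, adjusted p = 0.0189). Vcam1, an adhesion molecule that binds lymphocytes to vessels and stroma, rose by 1.39 (adjusted p = 0.031) from 3.98 to 7.21 CPM to 12.7 to 21.1 CPM. It belongs to another list, of adhesion and endothelium, where 3 of 16 genes tested rose, against 10.3% of all genes. In that list 9 of 16 fold changes were positive, the median log2 fold change was 0.08, and 1 to 3 genes passed with 1 mouse left out. Chst3, a sulfotransferase of chondroitin, was among the 5 largest increases of moderately expressed DEGs, from 0.0975, 1.79 and 0.746 CPM to 27.7, 18.5 and 11.4 CPM (log2 fold change 4.43, adjusted p = 0.0345). Chst3 was named for the size of its change alone.

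The list of lymphoid chemokines and vessels held 16 genes, and the 14 tested had a median log2 fold change of 1.92. Ccl21a, which has near-identical copies, and Madcam1 had no count in any of the 6 mice. In the fit without 2M replicate 3, 2 of the 14 passed, and without 4M replicate 1, 3 did. Without any other mouse 5 or 6 passed. Of the germinal centre genes 2 of 10 tested rose, the cytokine receptor Il21r (2.17, adjusted p = 0.0413) and the positioning receptor Gpr183 (1.70, adjusted p = 0.0224). The count was 0 without 2M replicate 3, 1 without any 1 of the 4M mice, 2 and 3 without 2M replicate 1 and 2, and 4 in DESeq2, and with all mice 5 of 10 had an unadjusted p under 0.05. Among division genes, Mki67 had 36.9, 28.3 and 41.5 CPM at 2M and 42.8, 33.3 and 42.1 CPM at 4M (adjusted p = 0.571), and 3 of 21 cell cycle genes, the replication licensing factors Mcm3, Mcm5 and Mcm6, rose by 0.56 to 0.77, near the share of all genes. The count was 3 without 4M replicate 2 and 1 without any other mouse.

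**Figure D4:**
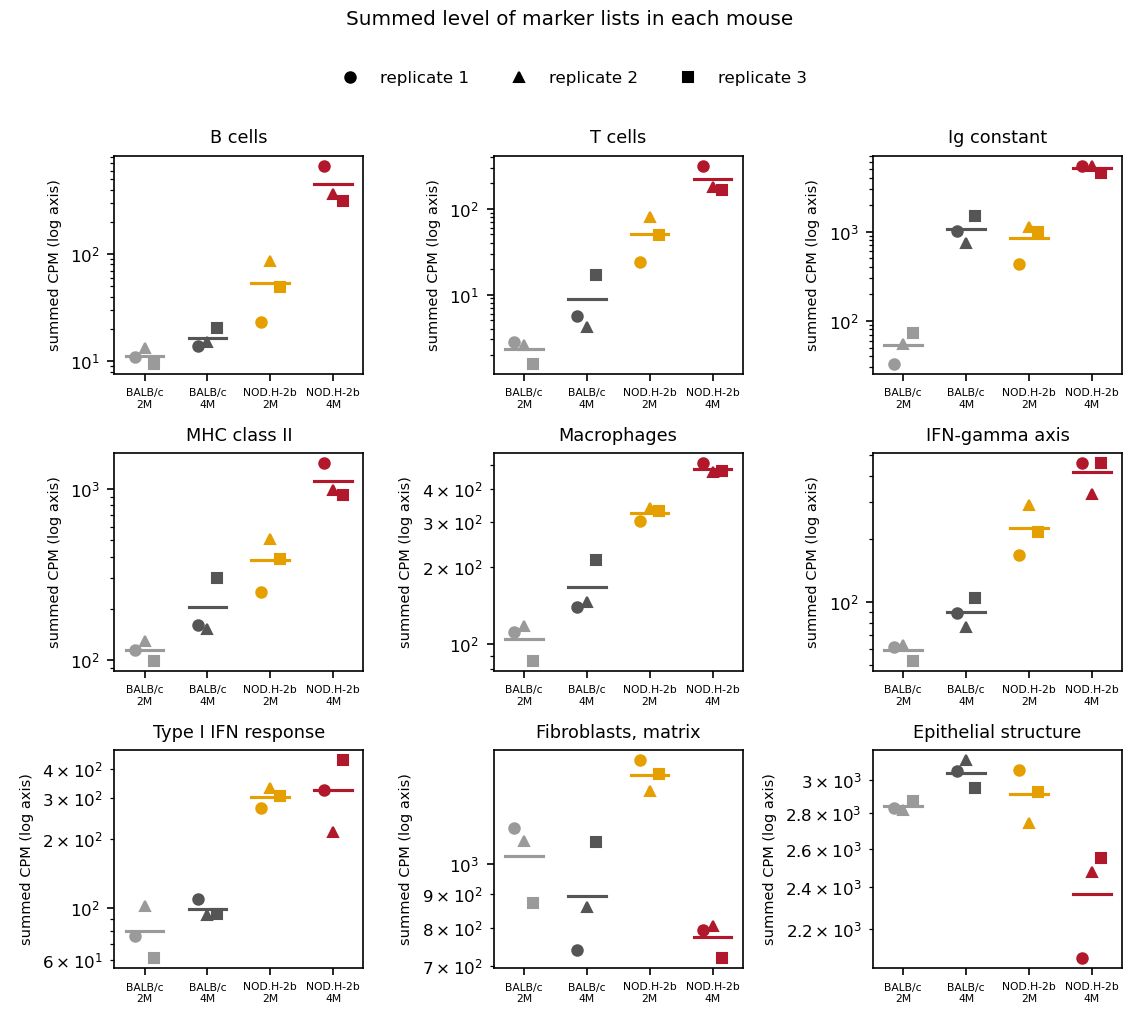
Summed CPM of 9 gene lists (log axes) in each mouse of 2M and 4M in BALB/c and NOD.H-2b, with marker shape for replicate and a line at the mean of each group. In NOD.H-2b the B cell sums go from 23.1 to 87.0 CPM at 2M to 313 to 666 CPM at 4M, the type I interferon sums overlap between the ages, and the fibroblast and epithelial sums are lower at 4M.

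Most genes of the list for antigen presentation on MHC class II rose. The 11 genes summed to 251, 511 and 389 CPM at 2M and 1412, 978 and 923 CPM at 4M, and 9 of 11 rose at least 2-fold with a median log2 fold change of 1.60. H2-Aa, the alpha chain of the classical I-A molecule, had 50.2, 107 and 75.1 CPM at 2M and 261, 193 and 177 CPM at 4M (log2 fold change 1.44, SE 0.33, adjusted p = 0.0466). The groups did not overlap, and replicate 1 was the lowest at 2M and the highest at 4M. H2-Oa, a regulator of peptide loading found mainly in B cells, rose most of those past the threshold (3.04, adjusted p = 0.0357), and Ciita, the master activator of the class II genes, rose by 2.00 (adjusted p = 0.0373). B cells, dendritic cells and macrophages all express these genes, and their shares were not separated here. The number past the threshold was 0 without 2M replicate 3, 10 and 9 without 2M replicate 1 and 2, and 2, 1 and 2 without 4M replicate 1, 2 and 3, while 11 of 11 had an unadjusted p under 0.05 with all mice and 11 passed in DESeq2.

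The adaptors that carry an immunoreceptor tyrosine-based activation motif (ITAM), through which antigen and Fc receptors signal, were examined gene by gene, and 5 of 8 rose. Tyrobp, the adaptor DAP12 of myeloid and killer cell receptors, had 5.83, 8.04 and 7.12 CPM at 2M and 11.3, 11.7 and 11.3 CPM at 4M (log2 fold change 0.70, SE 0.13, adjusted p = 0.0127). Fcer1g, the common chain of Fc receptors, rose by 0.44 (adjusted p = 0.0353) with 6.45 to 8.14 CPM and then 9.60 to 10.2 CPM. The chains of lymphocyte receptors had larger fold changes: Cd79a, Cd247 and Cd3g (2.20, adjusted p = 0.0404) rose, while Cd79b (3.63, adjusted p = 0.0604), Cd3e and Cd3d (1.98, adjusted p = 0.0534) missed the threshold. All 8 were higher in every 4M mouse than in every 2M mouse. Leaving 2M replicate 3 out, 0 of 8 passed, while 8 of 8 had an unadjusted p under 0.05 with all mice and 8 passed in DESeq2. Without 1 of the 4M mice 2 of 8 passed.

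The macrophage list had a smaller median log2 fold change than the B and T cell lists. Its 22 genes summed to 300, 339 and 330 CPM at 2M and 507, 466 and 471 CPM at 4M, a 1.49-fold higher mean without overlap. Of 20 genes tested, 10 rose, 3 of them at least 2-fold, and 1 fell, with a median log2 fold change of 0.41. Lyz2, the lysozyme of myeloid cells, had 67.5, 80.9 and 74.4 CPM at 2M and 160, 150 and 151 CPM at 4M (log2 fold change 1.05, SE 0.08, adjusted p = 0.000783). Gpnmb, a glycoprotein of lipid-laden and phagocytic macrophages, rose by 2.17 (adjusted p = 0.00216) from 0.98 to 1.66 CPM to 5.32 to 6.98 CPM. Cd5l, a survival factor of tissue macrophages, rose by 2.20 (adjusted p = 0.0206) but stayed under 0.32 CPM in each mouse.

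The defining receptor Csf1r, for macrophage growth factor, differed by 0.22 (adjusted p = 0.114), with 28.6 to 30.2 CPM at 2M and 31.2 to 38.3 CPM at 4M. Cd163, the haemoglobin scavenger receptor of resident macrophages, fell by 0.72 (adjusted p = 0.0104) from 10.4, 8.66 and 9.39 CPM to 5.13, 6.34 and 5.93 CPM. The complement components C1qa, C1qb and C1qc rose by 0.47 to 0.56. The number of macrophage genes past the threshold as higher was 4 without 2M replicate 3, 5 without 2M replicate 1, 6 without 4M replicate 2 and 7 to 9 without any other mouse. In the dendritic cell list Itgax (CD11c) rose by 1.03 (adjusted p = 0.016) and the chemokine Ccl22 by 1.24 (adjusted p = 0.0324), among 4 of 13 genes tested. Without 2M replicate 3 no dendritic cell gene passed, 1 did without 2M replicate 1, 2 without 4M replicate 1 or 3, and 3 without either of the others, while 6 had an unadjusted p under 0.05 with all mice and DESeq2 called 6. The 9 neutrophil genes summed to 1.87, 2.98 and 3.23 CPM at 2M and 5.97, 6.02 and 5.87 CPM at 4M, a 2.21-fold higher mean without overlap. Csf3r, a growth factor receptor of neutrophils and other myeloid cells, made up most of this sum and was the only member that could be tested. It rose by 1.05 (SE 0.21, adjusted p = 0.0168) and passed whichever mouse was left out. The granule genes S100a8 and S100a9 were at or under 0.31 CPM in each mouse.

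Some interferon gamma targets rose, while type I interferon targets did not pass the test. Of 21 genes of the interferon gamma list tested, 5 rose, with a median log2 fold change of 0.82. Irf1, a transcription factor induced by that cytokine (promoter shown above), had 19.4, 30.9 and 27.1 CPM at 2M and 53.1, 43.6 and 50.9 CPM at 4M (log2 fold change 0.93, SE 0.18, adjusted p = 0.0208). Cd274, the checkpoint ligand PD-L1, rose by 1.38 (adjusted p = 0.0338). Cxcl9, a chemokine that draws activated T cells, had 1.80, 11.5 and 5.96 CPM at 2M and 18.0, 12.3 and 22.2 CPM at 4M, and its adjusted p was 0.227. The number past the threshold was 0 without 2M replicate 3 and 13 without 2M replicate 2, and with all mice 16 of 21 had an unadjusted p under 0.05 and 15 passed in DESeq2. It was 2 without 2M replicate 1 and 1, 4 and 1 without 4M replicate 1, 2 and 3.

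The type I interferon list summed to 271, 330 and 306 CPM at 2M and 324, 214 and 435 CPM at 4M, so the ages overlapped. In edgeR 0 of 20 genes passed, 1 had an unadjusted p under 0.05, and DESeq2 called 1. Without 4M replicate 3, 3 of them passed as lower at 4M, and without any other mouse 0 passed in either direction. Isg15, a ubiquitin-like protein of that response, had 2.37, 3.39 and 2.77 CPM at 2M and 3.31, 2.05 and 5.70 CPM at 4M (adjusted p = 0.54). At 4M replicate 3 had the highest sum and replicate 2 the lowest, which is not the order of the B cell list.

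In the class I presentation list, genes of peptide cutting and transport rose. Psmb9, a subunit of the immunoproteasome, had 5.15, 11.4 and 7.25 CPM at 2M and 23.4, 16.0 and 19.6 CPM at 4M (log2 fold change 1.30, SE 0.32, adjusted p = 0.0469). Psmb8, Psmb10, Psme1, Psme2 and the transporter Tap2 also rose, by 0.50 to 1.13, so 6 of 11 passed. B2m, the light chain that every class I molecule needs, had 343, 436 and 457 CPM at 2M and 484, 434 and 516.5 CPM at 4M, with overlap (adjusted p = 0.253). In the fit lacking 2M replicate 3, 1 of 11 passed, and without 1 of the others 4 to 8 did.

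Among secreted mediators, Tnf, which encodes the cytokine TNF, had 1.97, 1.75 and 1.48 CPM at 2M and 3.61, 3.34 and 3.23 CPM at 4M (log2 fold change 0.97, SE 0.17, adjusted p = 0.0116). Spp1, the matrix cytokine osteopontin, rose by 2.03 (adjusted p = 0.0198), and Tgfb1, a cytokine that restrains lymphocytes and drives matrix production, by 1.22 (adjusted p = 0.00922). In all 6 of 19 cytokine genes tested rose, and 2 of the 21 listed, Il6 and Il17a, were too low to test. C3, the central complement protein, rose by 0.83 (adjusted p = 0.0371), from 107, 160 and 128 CPM to 285, 218 and 204 CPM, with C4b and C1s1 among 3 of 12 complement genes. Of 21 genes of apoptosis and death receptors 9 rose. Fas, the death receptor, rose by 0.60 (adjusted p = 0.0318), and Ripk3, a kinase of necroptosis, by 1.32 (adjusted p = 0.0243), at 0.552 to 0.904 CPM and then 1.36 to 2.54 CPM. With 2M replicate 3 left out, 2 of the cytokine genes, 1 of the complement genes and 2 of the death genes passed. Without 2M replicate 1 the counts were 3, 1 and 5.

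Most collagen and matrix genes fell. The 23 genes of the fibroblast and matrix list summed to 1444, 1295 and 1377 CPM at 2M and 794.5, 805 and 719 CPM at 4M. Of these, 16 fell, 4 of them at least 2-fold, and the median log2 fold change was -0.51. In 17 of 23 genes every 4M mouse was below every 2M mouse, against 15.8% of all genes. Col1a1, the alpha 1 chain of type I collagen (chr11:94936224-94953042), had 156.4, 140 and 156.2 CPM at 2M and 50.5, 48.2 and 39.7 CPM at 4M. The groups lay far apart, and the log2 fold change was -1.71 (SE 0.10, adjusted p = 0.000218), past the threshold in each alternative fit. Col3a1, the type III chain, had 348, 299 and 314 CPM and then 148, 151 and 126 CPM (log2 fold change -1.18, adjusted p = 0.000783). Sparc, a collagen-binding matrix protein, fell by 1.07 on the log2 scale.

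With any 1 mouse left out, 12 to 16 genes of this list passed as lower. Postn, Fap, Pdgfra and Pdgfrb, which mark fibroblasts or pericytes, were not among the genes that fell. In BALB/c the list's mean sum was 1031 CPM at 2M and 894 CPM at 4M, and in the test of the strain difference, described further on, 3 matrix genes passed with a more negative change in NOD.H-2b: Lum (difference -1.004), Col6a3 (-0.73) and Dcn (-0.52). For Col1a1 the strain difference was -1.13 with an adjusted p of 0.135.

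Secretory genes of the acini moved in both directions. Of 24 genes tested 4 rose and 5 fell, the median log2 fold change was 0.01, and the summed level of 268500 to 285400 CPM at 2M overlapped with 269700 to 306500 CPM at 4M. Esp1, the male pheromone peptide of tears (chr17:40727120-40731782), had the largest increase of moderately expressed DEGs: 1.32, 1.11 and 0.638 CPM at 2M and 153, 47.5 and 70.5 CPM at 4M (log2 fold change 6.46, SE 0.66, adjusted p = 0.0095). Its relative Esp31 had 51.5, 98.8 and 66.8 CPM and then 1080, 586 and 816 CPM (log2 fold change 3.51, adjusted p = 0.00966). Scgb2a2, a secretoglobin, had 753, 1217 and 409 CPM and then 10740, 7960 and 5955 CPM (log2 fold change 3.37, adjusted p = 0.0184). In BALB/c of 2M these genes were already at 98.3 to 212, 2950 to 3495 and 5570 to 9443 CPM.

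Other genes, in the secretory list or outside it, fell. Esp36 had 17.8, 20.6 and 18.7 CPM at 2M and 6.20, 2.15 and 1.51 CPM at 4M (log2 fold change -2.52, SE 0.57, adjusted p = 0.0446). Sval3, a seminal vesicle antigen-like secreted protein, had 110.5, 110 and 83.9 CPM and then 10.95, 26.0 and 19.0 CPM (log2 fold change -2.45, SE 0.35, adjusted p = 0.017), and Mfsd4a, a membrane transporter, fell by 1.63 (adjusted p = 0.0112). With Col1a1 and Igkv4-86 these were the 5 largest decreases among moderately expressed DEGs. In BALB/c Mfsd4a fell by 1.72 (adjusted p = 0.000118), while Sval3 had a log2 fold change of -2.32 (adjusted p = 0.235) and Esp36 of -0.96 (adjusted p = 0.233), and for none of these 3 genes did the test of the strain difference pass (adjusted p = 0.919, 0.967 and 0.285). Obp1b, an odorant-binding protein, fell by 1.58 (adjusted p = 0.0344), and the abundant tear proteins Mup4 and Pip fell by 0.51 and 0.55 (adjusted p = 0.0391 and 0.0167). Scgb2b17 overlapped between the ages (adjusted p = 0.182), and so did the water channel Aqp5 with 123 to 150 CPM and 108 to 145 CPM. Of the secretory list 5 genes fell, Obp1b among them but not Esp36, Sval3 or Mfsd4a. Without 2M replicate 1 or 2M replicate 3, 2 genes of the list passed as lower. As higher, 2 passed without 2M replicate 1 and 1 without 2M replicate 3, beside 4 with all mice.

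The epithelial structure list had a lower sum at 4M. Its 28 genes of cell adhesion, tight junctions and keratins summed to 3063, 2742 and 2924 CPM at 2M and 2072, 2478 and 2547 CPM at 4M, without overlap. Of these, 10 fell, each by less than 2-fold, and the median log2 fold change was -0.29. Epcam, the adhesion molecule of all glandular epithelium, had 114.5, 114 and 114 CPM at 2M and 83.8, 102 and 96.5 CPM at 4M (log2 fold change -0.28, SE 0.08, adjusted p = 0.0417). Cldn3, a tight junction claudin, fell by 0.65 (adjusted p = 0.0215), from 55.9 to 63.8 CPM to 30.5 to 44.6 CPM. Replicate 1, the 4M mouse with the most B cell transcripts, was the lowest 4M mouse in both. CPM are shares of a library, and the part of the rising leukocyte transcripts in these small decreases was not tested. Without 2M replicate 1, 1 of 28 passed, without 2M replicate 3, 2 did, and without any other mouse 7 to 12 did.

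Duct and myoepithelial genes showed little. Wfdc18, a whey acidic protein family member expressed in ducts, fell by 0.83 (adjusted p = 0.00426), from 210 to 241 CPM to 109 to 140 CPM, as 1 of 10 duct genes tested. Ltf, the antimicrobial iron binder lactoferrin, had 802, 699 and 862 CPM and then 605, 771.5 and 733 CPM, with overlap (adjusted p = 0.324). Acta2, the smooth muscle actin of the contractile cells around acini, had 25.3 to 35.1 CPM and 25.5 to 28.0 CPM (adjusted p = 0.178).

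Few genes of the metabolic lists passed, in several lists a share near that of all genes (10.3% rose and 5.48% fell). In fatty acid synthesis 4 of 20 genes rose and 1 fell: the desaturases Fads2 (1.02, adjusted p = 0.023), Scd1 (0.60) and Fads1 (0.53) and the elongase Elovl5 (0.49) rose, while Me1, which supplies NADPH, fell by 0.57. Fasn, the synthase itself, had 336, 234 and 280 CPM at 2M and 229, 315.5 and 434 CPM at 4M (adjusted p = 0.658). In beta oxidation 1 of 20 genes fell, no more than the share of all genes. Cpt1a, the mitochondrial entry enzyme, had 49.5 to 56.1 CPM and 43.4 to 45.2 CPM (adjusted p = 0.0561). In the TCA cycle 2 of 20 genes, Pdha1 and Dld, fell by 0.30 and 0.29, and Cs did not pass (adjusted p = 0.297). Among 20 genes of cholesterol metabolism 4 fell, Hmgcs1, Dhcr7, Insig1 and Pmvk, and 2 rose, among them the sterol carrier Stard4 (1.09, adjusted p = 0.0167).

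Of 18 genes of endoplasmic reticulum folding 4 fell, among them the stress regulator Trib3 by 0.75 (adjusted p = 0.0443), and the chaperone Hspa5 had 987 to 1212 CPM and 862 to 1112 CPM (adjusted p = 0.276). The folding genes past the threshold as lower numbered 0 without 2M replicate 3, 2 without 2M replicate 1, 2M replicate 2 or 4M replicate 1, 3 without 4M replicate 2 and 6 without 4M replicate 3. Those of fatty acid synthesis past it as higher numbered 1 without 2M replicate 3 or 4M replicate 1, 2 without 2M replicate 1 and 3 without any other mouse, and for cholesterol metabolism the counts ran from 2 to 5 as lower and from 0, without 2M replicate 3, to 2 as higher. Without 2M replicate 1, 2M replicate 2 or 2M replicate 3, 0 of the 20 TCA cycle genes and 0 of the 20 beta oxidation genes passed as lower, where 5 in each list had an unadjusted p under 0.05 with all mice and DESeq2 called 3 and 2.

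The 14 clock genes summed to 771.5, 639 and 683 CPM at 2M and 447, 494 and 525 CPM at 4M, without overlap. Their median log2 fold change was -0.996. Every 4M mouse was below every 2M mouse for 8 of 14 genes, against 15.8% of all genes, and above for 2, against 22.1%. In the test 1 rose and 1 fell, where 10.3% and 5.48% of all genes did. A decrease had an unadjusted p under 0.05 in 8 genes, and DESeq2 called 2 higher and 8 lower. In BALB/c the mean sum was 827 CPM at 2M and 635 CPM at 4M. The number past the threshold as higher was 0 to 2, and as lower 0 to 5, when 1 mouse was left out. Arntl, the core activator of the circadian clock, had 6.53, 5.65 and 2.98 CPM at 2M and 15.4, 21.2 and 29.1 CPM at 4M (log2 fold change 2.11, SE 0.37, adjusted p = 0.0233). Dbp, an output gene that peaks when Arntl is low, had 26.3, 26.1 and 46.0 CPM at 2M and 8.02, 2.30 and 0.814 CPM at 4M and did not pass (adjusted p = 0.0677). The groups did not overlap in either gene. In BALB/c Arntl also had 0.802 to 1.55 CPM at 2M and 4.48 to 18.1 CPM at 4M. The hour at which the glands were taken is not given in the sources used here, so age and hour of collection cannot be told apart for these genes, and the part of the hour in other genes was not tested.

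BALB/c glands changed over the same 2 months as well. In a fit of their own, 345 of 16639 genes tested rose at least 2-fold (2.07%) and 50 fell (0.3%). The genes that rose in both strains numbered 145, which is 13.7% of those that rose in NOD.H-2b and 42% of those that rose in BALB/c. Another 6 fell in both, or 5.41% and 12%. The immunoglobulin constant sum of BALB/c went from 53.7 to 1083 CPM, beside a 5.98-fold higher mean at 4M in NOD.H-2b, and the B cell list sum of BALB/c from 11.3 to 16.5 CPM. The T cell sums of BALB/c were 2.83, 2.59 and 1.57 CPM at 2M and 5.56, 4.24 and 16.8 CPM at 4M. They were higher at 4M without overlap, with means of 2.33 and 8.86 CPM.

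The difference between the strains in the change from 2M to 4M was itself tested on the 12 mice, as an interaction of strain and age. It was at least 1 on the log2 scale in favour of NOD.H-2b for 62 of 18422 genes (0.337%) and in favour of BALB/c for 57 (0.309%). Of the 1061 genes that rose in NOD.H-2b, 45 (4.24%) rose more than in BALB/c and 3 less, and of the 111 that fell, 22 (19.8%) had a lower change. These genes were chosen by the change in the same NOD.H-2b mice, so these shares describe them and test nothing. The 62 became 13 to 26 without any 1 of BALB/c 2M replicates 1, 2 and 3, BALB/c 4M replicates 1 and 2 and NOD.H-2b 2M replicates 1 and 3, and 114 without NOD.H-2b 4M replicate 3. The 57 became 27 to 35 without any 1 of BALB/c 2M replicates 1, 2 and 3, BALB/c 4M replicate 2 and NOD.H-2b 2M replicate 1. In the B cell list the smallest adjusted p of this test was 0.0721 (Ebf1), and the median difference of the list was 1.48. In the other immune lists that median ran from -2.05 for immunoglobulin constant genes to 0.77 for lymphoid chemokines and vessels. The median was 0.72 for MHC class II, -0.29 for T cells, -0.39 for ITAM adaptors and -1.51 for cytotoxic cells. In the T cell list 0 of 26 genes passed. In BALB/c the 20 B cell genes summed to 9.50 to 13.3 CPM at 2M and 13.9 to 20.5 CPM at 4M. Cd79a rose there by 4.81 (adjusted p = 0.00069), from at most 0.0355 CPM to 0.442 to 0.723 CPM. Its strain difference was -0.95 (adjusted p = 0.868). Why no B cell gene passed was not tested.

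Pecam1, an adhesion molecule of endothelium and leukocytes, had 12.4, 14.0 and 13.2 CPM at 2M and 35.3, 26.1 and 24.2 CPM at 4M in NOD.H-2b, where it rose by 1.11. In BALB/c it had 8.29 to 9.69 CPM and 8.44 to 9.81 CPM. The difference of 1.10 (SE 0.18) had an adjusted p of 0.00986. Esp31 and Esp1 rose more in NOD.H-2b, by differences of 3.54 (adjusted p = 0.01) and 5.36 (adjusted p = 0.0311), up to levels at 4M that were still below the lowest BALB/c mouse of that age.

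Genes with a lower change in NOD.H-2b belonged to several lists, among them matrix, immunoglobulin and epithelial genes. Pigr, the receptor that carries polymeric IgA into tears (chr1:130826684-130852249), was named after its values were seen, as the only gene that fell at least 2-fold in NOD.H-2b and rose at least 2-fold in BALB/c. It had 754, 458 and 628 CPM at 2M and 241, 270 and 376 CPM at 4M in NOD.H-2b (log2 fold change -1.06, SE 0.24, adjusted p = 0.0396). In BALB/c it had 137, 111 and 159 CPM and then 367, 422 and 403 CPM (1.55, adjusted p = 0.00322), and the difference of -2.60 (SE 0.31) had an adjusted p of 0.00907. Sult1d1, a cytosolic sulfotransferase also named after its values were seen, had 7.02, 5.92 and 5.32 CPM and then 0.496, 0.414 and 0.496 CPM (log2 fold change -3.70, SE 0.19, adjusted p = 0.000218), against a log2 fold change of -1.01 in BALB/c (difference -2.68, adjusted p = 0.000333). In the epithelial structure list the test called 7 of 28 genes with a lower change in NOD.H-2b, against 1.13% of all genes: Epcam, Krt18, Cdh1, Cldn3, Tjp3, Spint2 and Jup. Epcam differed by -0.55 (adjusted p = 0.0107), with 87.7 to 89.7 CPM and then 103 to 110 CPM in BALB/c.

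**Figure D5:**
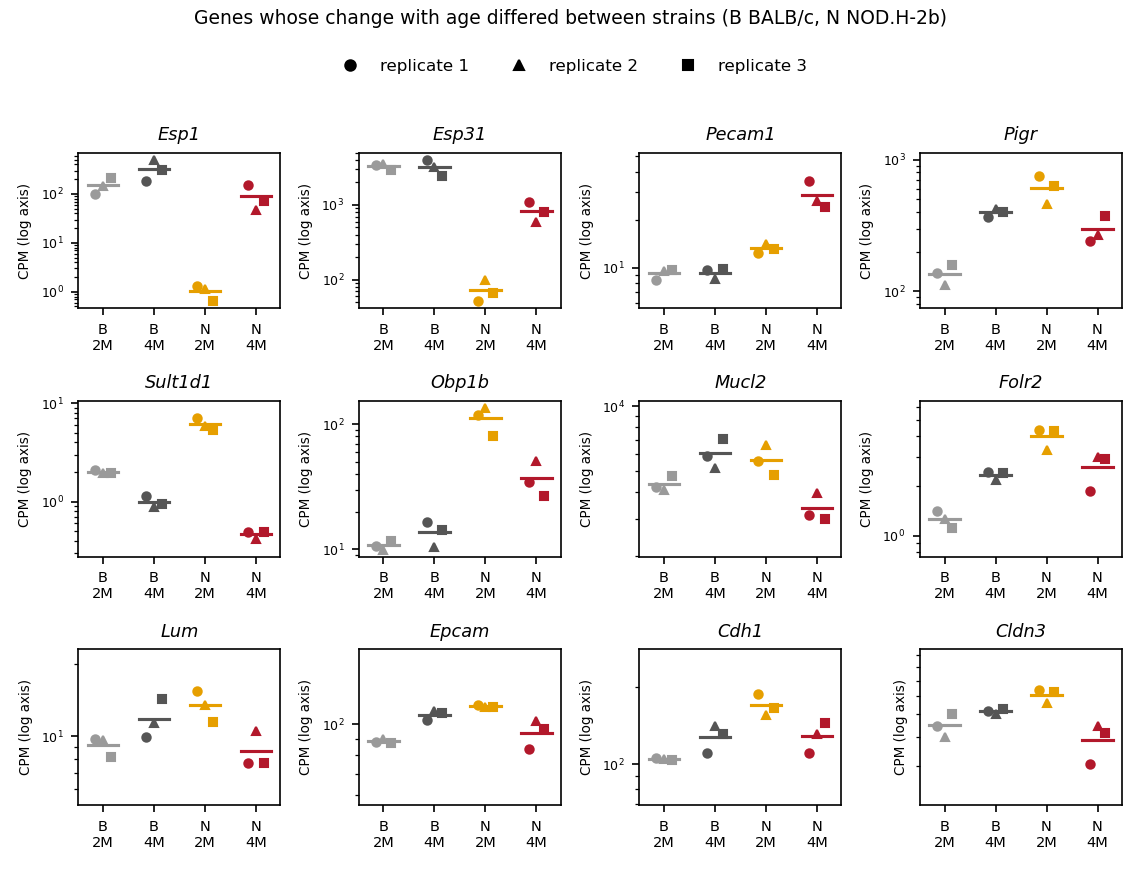
CPM on log axes of 12 genes at 2M and 4M, 3 mice each, in BALB/c (marked B) or in NOD.H-2b (marked N), with marker shape for replicate and a line at the mean of each group. Pigr goes from 111 to 159 CPM up to 367 to 422 CPM in BALB/c and from 458 to 754 CPM down to 241 to 376 CPM in NOD.H-2b, and Epcam, Cdh1 and Cldn3 are lower at 4M in NOD.H-2b without being so in BALB/c.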

How the data were processed

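Each sample was 1 LG of 1 mouse, depleted of ribosomal RNA and read as paired ends. The authors deposited counts per gene, obtained with cutadapt, STAR on GRCm38, and HTSeq. The strand setting, annotation release and treatment of multi-mapped reads are not given in the sources used here. A second deposited table, with the authors' log2 values, was not used. Gene names and positions were taken from GENCODE M21 for 54165 of 54232 genes.

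Counts of the 6 mice were normalized by TMM, filtered with filterByExpr and tested with edgeR's robust quasi-likelihood test (R 4.3.3, edgeR 4.0.16, limma 3.58.1), with Benjamini-Hochberg adjustment over all genes tested. DEGs passed an adjusted p of 0.05 and changed at least 2-fold. The strain difference was the interaction term of a fit on 12 mice. Standard errors are the size of the log2 fold change over the root of F. The CPM shown come from 1 TMM scaling of these 12 mice, which differs from that of the 6 mice by at most 0.0108 on the log2 scale. Ranges and positions of mice on the log2 scale used a pseudocount of 0.1.

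The comparison and the gene lists were chosen with earlier results of these data known. The rule for named genes took the first gene of each list and its member with the largest fold change past the threshold, all ITAM adaptors, the 5 largest increases and decreases past the threshold, and the 5 widest 2M ranges, the last 2 among genes with a mean log2 CPM of 3 or more. Other list members are examples chosen after their values were seen. Some genes that the rule or the lists hold are not reported here. Alternatives were DESeq2 size factors, upper quartile scaling, no filter, a minimum of 10 counts in each sample, the Wald test of DESeq2 1.42.0, glmTreat, 1 fit of 18 mice, the replicate number as a block, and leaving out each mouse. Replicates differed by a chi-square of 24.3 to 83.4 per gene, far above counting noise, so each was kept as its own sample. The main edgeR tests of the NOD.H-2b change and of the strain difference were first run on simulated data with known changes. The BALB/c fit and the alternatives were not.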

Additional observations from a re-analysis of the deposited data

Results flagged for a closer look

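For 12 of the genes examined, the change from 2M to 4M differed between NOD.H-2b and BALB/c by at least 1 on the log2 scale in edgeR's interaction test on 12 mice. Groups of 3 mice are too small for a test of single mice that stand apart. Larger changes in NOD.H-2b were found for Esp1 (difference 5.36, SE 0.88, adjusted p = 0.0311), Esp31 (3.54, SE 0.43, adjusted p = 0.01) and Pecam1 (1.10, SE 0.18, adjusted p = 0.00986). Lower changes were found for Sult1d1 (-2.68, SE 0.25, adjusted p = 0.000333) and Pigr (-2.60, SE 0.31, adjusted p = 0.00907), whose values in each mouse are given above.

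Obp1b, the odorant-binding protein, differed by -1.93 (adjusted p = 0.0497) and Mucl2, a mucin-like secreted protein, by -1.23 (adjusted p = 0.0183). Mucl2 had 5553, 6603 and 4784 CPM at 2M and 3111, 3944 and 2991 CPM at 4M in NOD.H-2b, and 4086 to 4717 CPM and then 5143 to 7071 CPM in BALB/c. Folr2, a folate receptor of resident macrophages, differed by -1.51 (adjusted p = 0.0183), with 4.36, 3.30 and 4.32 CPM and then 1.85, 2.99 and 2.92 CPM in NOD.H-2b and 1.12 to 1.42 CPM and then 2.17 to 2.42 CPM in BALB/c. In both genes the ages did not overlap in either strain, and the strains moved in opposite directions. The matrix proteoglycan Lum differed by -1.004 (adjusted p = 0.0418) and Pmvk, an enzyme of the mevalonate pathway, by -1.13 (adjusted p = 0.0488).

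Iglc1, a lambda light chain constant gene, differed by -2.71 (adjusted p = 0.049). It went from 0.434 to 0.697 CPM to 14.9 to 17.3 CPM in BALB/c and from 3.12 to 7.44 CPM to 15.7 to 34.0 CPM in NOD.H-2b. The segment Igkv4-86 differed by -8.07 (adjusted p = 0.0476). It had 7.49, 15.2 and 24.6 CPM at 2M and 3.96, 2.82 and 3.33 CPM at 4M in NOD.H-2b, and at most 0.0756 CPM and then 0.255, 1.02 and 3.11 CPM in BALB/c, where 2 of 3 mice of 2M had no count and the fitted change depends on the prior count.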

How the results depend on the processing

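Under DESeq2 size factors, upper quartile scaling, no filter, a minimum of 10 counts in each sample, DESeq2's Wald test and 1 fit of 18 mice, 807 to 1513 genes rose and 88 to 161 fell at least 2-fold, beside 1061 and 111 in the report. With glmTreat, which tests against a 2-fold change and was not run for the strain difference, 45 rose and 2 fell. Leaving out each mouse in turn gave 229 to 1149 and 61 to 116 genes, with the lowest of both counts without 2M replicate 3. For the strain difference, DESeq2's Wald test found 193 larger and 150 smaller changes in NOD.H-2b in place of 62 and 57, and leaving out mice gave 13 to 114 and 27 to 72. The cause of these shifts was not tested.

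Replicate numbers are only names here. The deviations of same-numbered mice of 2M and 4M correlated at r = -0.43, -0.15 and 0.06 across genes, and none of the 2M mice correlated best with the 4M mouse of its own number. With the replicate block 135 genes rose and 22 fell, the strain difference had 24 larger and 35 smaller changes, and 0 of the B cell genes passed, in place of 12.

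Of 48 named genes past the threshold, 4 stayed past it in each setting that tested them: Col1a1, Cst7, Igkv6-15 and Igkv6-23. Of 426 values of named genes with 1 mouse left out, 129 lost and 6 gained significance and 2 changed sign, and of 555 under other settings, 102 lost and 21 gained it. The 2 were Fasn and Isg15, neither past the threshold, with log2 fold changes of -0.08758 and -0.1139 without 4M replicate 3, up to 0.37 without 4M replicate 1 and 0.65 without 4M replicate 2. Depth was at least 49480781 counts in each of the 6 mice, so counting error is small for all but the genes near 0.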
